A study of Mus musculus with 5 samples.

Results

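Globin-rich barcodes are droplets of a single-cell experiment in which the 4 adult haemoglobin genes, Hba-a1, Hba-a2, Hbb-bs and Hbb-bt, together made up at least 10% of the unique molecular identifiers (UMIs, counted RNA molecules). They were sought in 5 libraries of mouse cortex, among barcodes holding 500 UMIs and 200 genes or more, of which no more than 20% of UMIs were mitochondrial. Of 58411 barcodes that passed those filters, 130 were globin-rich. The sham library gave 20, day 1 gave 8, day 3 gave 1, day 7 gave 38 and day 14 gave 63. These barcodes were chosen by their measured globin UMIs, so every globin value is a description.

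All libraries came from C57BL/6J mice with no other allele or agent named. A single library was from sham-operated cortex, and the others were from the injury site 1, 3, 7 or 14 days after traumatic brain injury (TBI). Papain and DNase were used to free the cells, which went through a strainer and a Percoll spin. The number, age and sex of the mice behind a library are not given in the sources used here, nor is any perfusion or red cell lysis step. With 1 library per group there was no replicate and no test, so each comparison describes libraries, and all intervals are exact 95% ranges for counting error only.

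Red cells lose their nucleus as they mature, and the young forms in blood, reticulocytes, still carry RNA that is mostly globin mRNA. Alas2 makes the first enzyme of haem synthesis in red cells, membrane proteins such as band 3 are tied to a skeleton beneath the membrane, and mitochondria and ribosomes are cleared as the cell matures. In brain preparations red cells come from blood vessels or bleeding. A droplet can hold a red cell alone, a red cell with a brain cell, or a brain cell with globin RNA that was free in the suspension.

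The genes that chose and define the barcodes are shown first by the DNA before their starts, since the 4 globins set the rule and Alas2 is the marker it did not use. Each sequence is part of the 250 bases before the RefSeq start on GRCm38.p6, cut where the GENCODE gene begins, and is read 5′ to 3′ on the gene's strand. Capitals mark matches to a GATA motif on either strand, spelled AGATAA or AGATAG, and also TGATAA or TGATAG, or to CACCC on either strand, and no match overlapped one of the other motif.
Hba-a2 (chr11:32296242-32296488, plus strand): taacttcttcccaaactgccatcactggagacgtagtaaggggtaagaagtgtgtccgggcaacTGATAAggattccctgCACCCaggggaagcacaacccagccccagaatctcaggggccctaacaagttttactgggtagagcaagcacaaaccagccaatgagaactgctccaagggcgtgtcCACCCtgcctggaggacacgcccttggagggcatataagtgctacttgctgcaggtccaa
Hbb-bs (chr7:103828097-103828178, minus strand): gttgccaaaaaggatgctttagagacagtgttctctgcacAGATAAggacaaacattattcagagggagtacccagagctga
Hbb-bt (chr7:103813997-103814173, minus strand): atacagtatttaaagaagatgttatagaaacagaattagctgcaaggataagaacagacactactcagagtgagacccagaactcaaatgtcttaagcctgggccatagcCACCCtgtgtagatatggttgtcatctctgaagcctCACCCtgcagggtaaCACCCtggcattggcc
Alas2 (chrX:150547167-150547374, plus strand): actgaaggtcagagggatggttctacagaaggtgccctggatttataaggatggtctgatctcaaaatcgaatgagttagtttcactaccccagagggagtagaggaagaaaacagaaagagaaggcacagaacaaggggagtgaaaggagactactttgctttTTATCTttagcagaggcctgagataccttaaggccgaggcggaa

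By the GENCODE annotation of GRCm38, Hba-a1 (chr11:32283511-32284465) and Hba-a2 (chr11:32296489-32297298) lie on the plus strand, Hbb-bs (chr7:103826534-103828096) and Hbb-bt (chr7:103812524-103813996) on the minus strand, and Alas2 (chrX:150547375-150570638) on the plus strand. In the full 250 bases, Hba-a2 held 1 GATA and 2 CACCC matches, Hbb-bs held 1 and 1, Hbb-bt held 0 and 3, and Alas2 held 1 and 3. Matches of this kind were common: 26.5% of 32851 mouse promoters of the same length held a GATA match, 52.0% held CACCC, and 11.8% held both. Hba-a1 matched Hba-a2 at all 247 aligned bases before the start, and their open reading frames of 429 bases differed at 1 base. The frames of Hbb-bs and Hbb-bt, 444 bases long, also differed at 1 base. Before the start, 127 of 249 bases aligned without gaps were the same, a count that a single inserted or lost base would lower. The 3′ ends, which these libraries capture, were not compared. The split of UMIs within the alpha pair and within the beta pair is treated as uncertain, and sums of each pair are used below where possible.

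Depth differed between the libraries. They held between 11279455 UMIs in sham and 129161094 UMIs at day 14, and the other barcodes had a median of 774 UMIs in sham, 1757 at day 1, 3258 at day 3, 7288.5 at day 7 and 8740 at day 14. The non-globin UMIs of the globin-rich barcodes came to 15351, 9540, 833, 51323 and 341660 in the same order, so sums over all libraries are mostly the day 14 library. Between 27 and 59 barcode sequences were shared by each pair of libraries, and 0 of them were globin-rich. Scrublet called 2 of the 130 as doublets, the day 3 barcode and 1 at day 14. Of all barcodes that passed the filters it called 8.89%, 7.28%, 4.09%, 5.07% and 3.56% from sham to day 14. The day 7 calls were the highest 5% of scores. How well it finds a red cell with a brain cell was not tested, so the count does not measure shared droplets.

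The share of globin-rich barcodes was lowest in the day 3 library and highest in that of day 14, but the intervals of both overlap those of their neighbours in rank, day 1 and day 7. In sham they made up 0.174% of barcodes (interval 0.106 to 0.268%). The share was 0.0630% in the day 1 library, with an interval of 0.0272 to 0.124%, and 0.0101% in that of day 3, from 1 barcode, with an interval of 0.000256 to 0.0564%. In the day 7 library it was 0.307% (0.218 to 0.422%), and in that of day 14 0.527% (0.405 to 0.674%). The intervals of sham and day 7 overlap, as do those of sham and day 1, while those of sham and day 14 do not. Median UMIs of the other barcodes also rose from sham to day 14, and the part of depth in these shares was not tested.

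Shares of globin differed in kind between libraries. In sham the 20 barcodes ranged from 12.3 to 62.1% globin with a median of 30.9%, and at day 1 the 8 ranged from 10.5 to 75.3% with a median of 33.8%. The day 3 barcode held 35.3%. At day 7 the range was 19.1 to 93.6% with a median of 84.2%, and at day 14 it was 11.6 to 95.4% with a median of 51.4%. No barcode of sham, day 1 or day 3 reached 80%, against 22 at day 7 and 28 at day 14. Around the threshold, the lowest shares inside were 10.5, 11.6, 12.3, 13.4 and 13.5%, and the highest outside were 8.56, 8.26, 8.03, 7.65 and 7.31%.

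**Figure D1:**
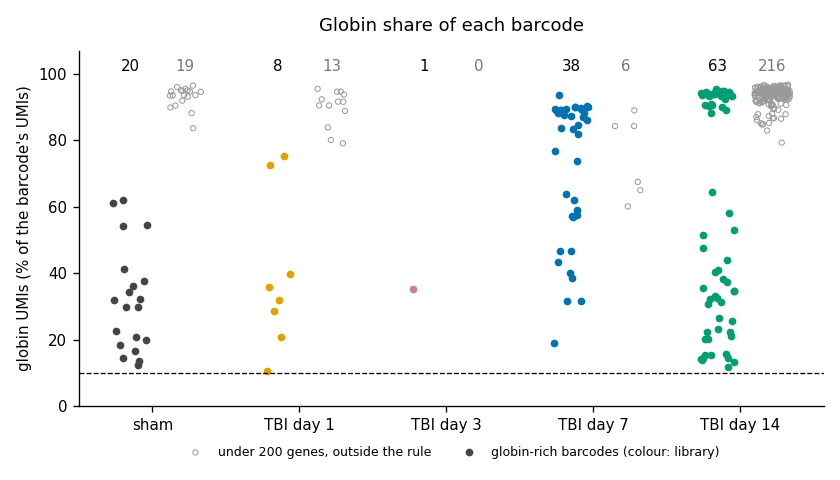
Globin share of each barcode (vertical axis, percent of its UMIs) by library, with filled points for the globin-rich barcodes and open grey points for barcodes of at least 10% globin but under 200 genes, which the rule leaves out. Numbers above give the barcodes of each kind, and the dashed line is the 10% threshold. At day 14, 28 of the 63 filled points lie above 80%, and 216 grey points lie beside them.

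The gene minimum left out further barcodes with much globin. In sham 19 globin-rich barcodes had under 200 genes, as did 13 at day 1, 0 of 9895 at day 3 (which allows up to 0.0303% of barcodes), 6 at day 7 and 216 at day 14. The 216 at day 14 had a median of 120 genes and 3163 UMIs, and 79.3 to 96.7% of their UMIs were globin. Alas2 was found in 206 of them. With them the day 14 share would be 2.29% in place of 0.527%, and the sham share 0.338% in place of 0.174%. Mitochondrial share left out 0 globin-rich barcodes in any library.

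Globin was also present at low levels in the other barcodes. At least 1 globin UMI was found in 3.85% of them in sham, 2.84% at day 1, 0.122% at day 3, 21.4% at day 7 and 53.2% at day 14. Thinned to 500 UMIs each, the shares were 2.30%, 1.07%, 0.0506%, 3.38% and 4.94%. The globin-rich barcodes held 88.9%, 82.4%, 65.7%, 97.4% and 92.2% of all globin UMIs of the barcodes that passed the filters. The day 3 library was lowest by each of these counts.

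**Figure D2:**
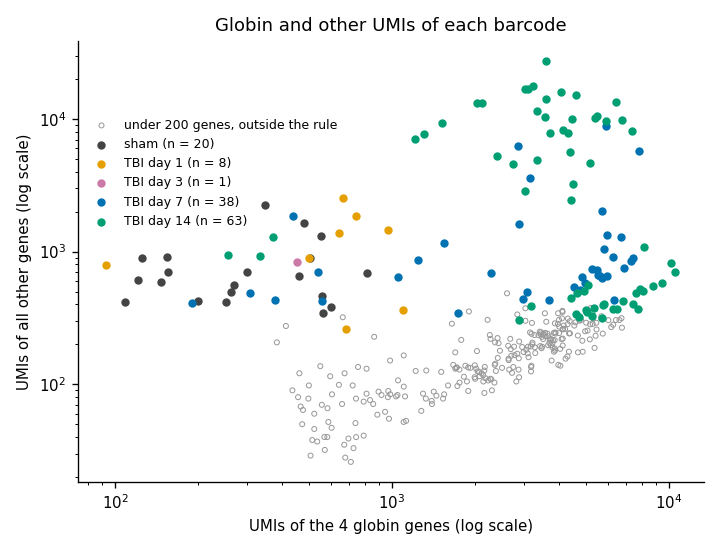
UMIs of the 4 globin genes (horizontal) against UMIs of all other genes (vertical) for each barcode, both on log scales, with globin-rich barcodes coloured by library and those under 200 genes in open grey. Many day 14 points lie far above the grey points at a like number of globin UMIs, while the day 7 and day 14 points with the highest globin share continue the grey points upward.

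Beta globin gave more UMIs than alpha globin in 126 of the 130 barcodes. Hbb-bs was the largest of the 4, with 53.3% of the globin UMIs in sham and up to 62.2% at day 3. The summed ratio of alpha to beta UMIs was 0.608 in sham (interval 0.579 to 0.638). It was 0.548 at day 1, with an interval of 0.518 to 0.580, and 0.413 in the day 3 barcode (0.335 to 0.507). At day 7 the ratio was 0.539, interval 0.534 to 0.545, and at day 14 it was lower, 0.457, interval 0.454 to 0.461. These are ratios of captured 3′ ends and not of protein chains.

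Single barcodes spread around those sums. The ratio ran from 0.411 to 0.823 in sham with a median of 0.596, and from 0.223 to 0.677 at day 14 with a median of 0.421. At day 14 its median was 0.349 in barcodes with 10 to 25% globin, 0.349 at 25 to 50% and 0.495 at 50% or more. At day 7 it ran from 0.195 to 2.86 around a median of 0.522. Of the 38 day 7 barcodes, 4 had more alpha than beta UMIs, with ratios of 1.05, 2.38, 2.67 and 2.86, against 0 of the 92 barcodes of the other libraries. These 4 were picked out after their values were seen, and they held 598 to 2098 UMIs.

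**Figure D3:**
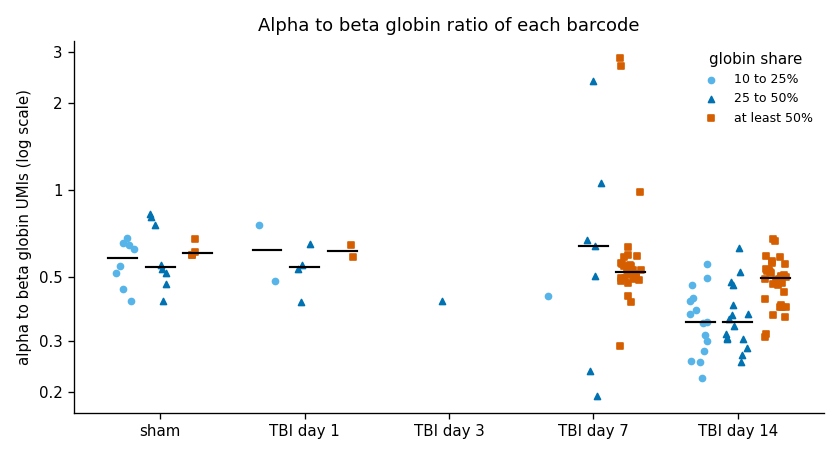
Ratio of alpha to beta globin UMIs (vertical, log scale) of each globin-rich barcode by library, split by globin share, with black bars at the medians of groups of more than 1 barcode. Of the 38 day 7 points 4 lie above 1, and at day 14 barcodes with 50% or more globin have the higher median, 0.495 against 0.349 in both other ranges.

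Alas2, the marker that the rule did not use, was found in 103 of the 130 barcodes (79.2%, 71.2 to 85.8%), but unevenly. It was found in 5 of 20 sham barcodes, 4 of 8 at day 1, 0 of 1 at day 3, 34 of 38 at day 7 and 60 of 63 at day 14. Per barcode it ranged from 0 to 5 UMIs with a median of 0 in sham, from 0 to 20 with a median of 8 at day 7, and from 0 to 31 with a median of 10 at day 14. Sham and day 1 barcodes held fewer globin UMIs in all (6976 and 5395) than those of day 7 and day 14 (153612 and 302871). Per 10000 globin UMIs, Alas2 stood at 12.9 in sham, 11.1 at day 1, 21.03 at day 7 and 21.9 at day 14, a narrower range. Among other barcodes Alas2 was found in 0 of 11505 in sham, which allows up to 0.0261%, in 4 at day 1, 0 of 9876 at day 3 (up to 0.0304%), 12 at day 7 and 27 at day 14.

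The erythroid name was checked next against a membrane gene. Slc4a1, the band 3 anion exchanger, had 13 UMIs at day 7 and 96 UMIs at day 14. It had 0 UMIs in sham, day 1 and day 3. A count of 0 there allows up to 195 CPM (counts per 1000000 non-globin UMIs) in sham, 314 CPM at day 1 and 3601 CPM at day 3, while its day 7 level was 253 CPM. A level like that of day 7 would not have been detectable at day 1 or day 3, and only the sham limit lay below it. The day 7 UMIs came with 153612 globin UMIs, while the sham barcodes held 6976. Relative to globin, a 0 in sham therefore cannot set sham apart from day 7. The sham, day 1 and day 3 barcodes are called globin-rich only, since this gene could not decide the name there.

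To separate red cell genes from those of a brain cell in the same droplet, each barcode was given a brain or immune class when it held at least 3 different markers of that class. UMIs of each non-globin gene were then set against the number expected from other barcodes of that class and library. Levels were scaled to CPM, a gene was measured with at least 10 UMIs observed or expected, and called at 2-fold or more. The interval covers only the observed UMIs.

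Red cell genes stood above this expectation. Over the 5 libraries 6480 genes were measured, of which 268 (4.14%) were at least 2-fold higher and 223 (3.44%) at least 2-fold lower. Of the 91 genes of 7 red cell lists, 69 were measured, 57 were at least 2-fold higher and 0 lower, with a median log2 ratio of 2.48 against -0.05 over all measured genes. Against all other barcodes of the same library, without classes, 6.22% of 6449 measured genes were higher and 3.52% lower, and again 57 of the 69 were. Some of this rests on 2 day 14 barcodes described below: without them 35 of 50 measured list genes were at least 2-fold higher.

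Haem synthesis genes were led by Alas2. Its 1002 UMIs compared with 0.541 expected, a log2 ratio of 10.86 (10.77 to 10.95). Fech, ferrochelatase, which puts iron into haem, had 170 UMIs against 12.7 (3.74, 3.52 to 3.96) and was found in 69 barcodes. Of the 8 genes, 7 were at least 2-fold higher, and Urod reached 0.98 (0.28 to 1.59). UMIs of Alad and Cpox, enzymes of the middle steps, were nearly all from day 14. Alad had 28 of its 29 UMIs there and Cpox 76 of 79, in 7 and 14 barcodes. Without the day 14 library the log2 ratios of Alad and Cpox were -0.53 and -1.84, so their place above the expectation rests on day 14.

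Iron supply was uneven in the same way. Slc25a37, mitoferrin, which carries iron into mitochondria, had 245 UMIs against 6.37 expected (5.27, 5.08 to 5.45) in 71 barcodes, with UMIs in all libraries but day 3. Glrx5, an iron-sulfur cluster protein, had 142 against 23.3 (2.61). Tfrc, the transferrin receptor, had 99 against 21.6 (2.20), but in only 17 barcodes, and without day 14 its log2 ratio was -0.12. In all, 4 of 6 measured genes of 10 were at least 2-fold higher, and Slc11a2 (0.42) and Ireb2 (0.19) were not.

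Of 20 membrane and skeleton genes 15 were measured and 14 were at least 2-fold higher, with a median log2 ratio of 5.71. Those expected under 10 UMIs, such as Slc4a1 and Epb42, were measured only through their UMIs in these barcodes. Slc4a1 had 109 UMIs in 29 barcodes against 0.00935 expected, and Epb42 (protein 4.2) had 22 against 0.00284. For both the expectation lay under 3 reference UMIs, so no fold is given. Genes with a measurable brain level were also higher: Epb41, protein 4.1, had 214 UMIs against 11.8 (4.18) in 78 barcodes, and Cd24a had 333 against 9.56 (5.12) in 62. Tmod1, a tropomodulin, was at -0.12 (-0.90 to 0.56).

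Among red cell enzymes, Bpgm and Gpx1 were found in 92 barcodes each. Bpgm makes 2,3-bisphosphoglycerate, which lowers the oxygen affinity of haemoglobin, and it had 845 UMIs against 30.2 expected (4.81, 4.71 to 4.91). Gpx1, glutathione peroxidase, had 1175 UMIs against 193 (2.61), Prdx2 had 368 against 83.9 (2.13), and Blvrb had 205 against 38.3 (2.42). Of 10 measured genes of 12, 8 were at least 2-fold higher. Car2, carbonic anhydrase 2, which oligodendrocytes also express, was at 0.91 (0.79 to 1.02), and Pklr had 0 UMIs.

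Genes of late maturation were found unevenly, in up to 97 barcodes, with Trim10 in 10 and Trim58 in 0. Ube2l6, a conjugating enzyme of the ubiquitin-like ISG15, had 392 UMIs against 18.3 (4.42). Mkrn1, a ubiquitin ligase, had 648 against 33.2 (4.29), and Bnip3l, the mitophagy receptor NIX, had 327 against 86.2 (1.92). Ube2l6 and Bnip3l were found in 95 barcodes each and Mkrn1 in 93. Of 19 measured genes of 21, 16 were at least 2-fold higher.

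Of the other globins, the theta type was found. Hbq1a and Hbq1b had 18 UMIs each, in 14 barcodes each, and reads of this near-identical pair can be shared. The embryonic genes Hbb-bh1, Hbb-y and Hba-x had 0 UMIs among 418707 non-globin UMIs, which allows up to 7.16 CPM. Hbb-bh2 had 1 UMI.

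**Figure D4:**
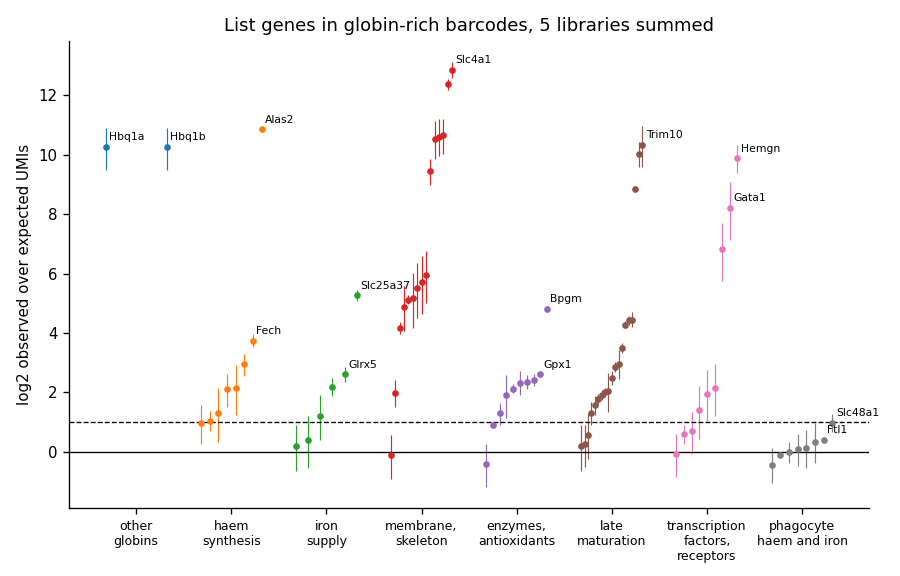
Log2 of observed over expected UMIs in the summed globin-rich barcodes for each measured gene of the 7 red cell lists and the phagocyte list, by list, with 95% Poisson bars on the observed UMIs. The vertical axis is a log scale, the solid line is no difference and the dashed line is 2-fold. Genes whose expectation was under 3 reference UMIs, such as Slc4a1, are drawn against that floor. The 8 phagocyte genes lie below the dashed line, while Alas2, Bpgm and Slc4a1 lie far above it.

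Of 14 transcription factors and receptors of red cell precursors 9 were measured, and 6 were at least 2-fold higher. Lmo2, which other blood cells and endothelium also express, had 83 UMIs in 37 barcodes, with a log2 ratio of 0.61. Gata1 and Klf1, master regulators of the erythroid programme, had 10 UMIs each, all at day 14 and in the same 2 barcodes. One of these barcodes held 7714 UMIs and 1225 genes with 58.2% globin, and the other 19826 UMIs and 3294 genes with 32.6% globin. Both held Rhag (10 and 16 UMIs), Rhd (17 and 24), Hemgn (11 and 25) and Tfrc (28 and 47). Both also held genes of dividing cells, with 17 and 32 UMIs of Mki67 and 12 and 23 of Birc5, and 73 and 319 UMIs over the 12 division genes. Kit was at 0 in both, and its 12 UMIs lay in 2 other barcodes. Epor and Gfi1b had 0 UMIs in all 130.

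These 2 barcodes, chosen after their values were seen, carried much of several counts. Without them the log2 ratios of Ppox (-0.077), Alad (-0.40), Cpox (-0.43), Abcb10 (-0.75), Tal1 (-0.67) and Mki67 (-3.08) turned below 0. At day 14 in the 25 to 50% globin range, the division list stood at 72.9 UMIs per 10000 globin UMIs with them and 30.6 without, and Slc4a1 at 6.64 and 1.09. Alas2 stood at 31.0 with them and 31.3 without. Of the 96 day 14 Slc4a1 UMIs the pair held 22 and 40. The larger held 7 microglia markers and the smaller 3 monocyte or macrophage markers, which is how they were classed.

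Each library was then read on its own where it held at least 20 globin-rich barcodes. In sham only 220 genes were measured, 6.82% of them at least 2-fold higher and 3.64% lower, and 1 was a red cell list gene, which was not. The 5 genes with the highest lower bounds were Oaz1 (18 UMIs, log2 ratio 1.49), S100b (12, 1.62), Ablim1 (10, 1.66), Btf3 (10, 1.59) and Lsamp (10, 1.56). Summed over whole lists, the haem synthesis genes gave 16 UMIs against 3.17 expected, late maturation 42 against 18.7, and membrane genes 2 against 2.38. All red cell lists together gave 114 against 61.2. The sham barcodes thus held few red cell UMIs beyond globin, of which Alas2 gave 9.

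At day 1 and day 3 the counts were smaller still. The 8 day 1 barcodes held 6 Alas2 UMIs, 14 of Gpx1, 8 of Mkrn1, 5 of Slc25a37 and 5 of Ube2l6. The level of Slc25a37 was 524 CPM against 36.3 expected, and that of Mkrn1 839 CPM against 63.0. The day 3 barcode held 5 red list UMIs, of which 2 were Ube2l6 and 1 was Mkrn1, and it had 12 astrocyte markers.

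At day 7, 764 genes were measured and 87 (11.4%) were at least 2-fold higher. Of 29 measured red cell list genes, 28 were. Alas2 had 323 UMIs, Bpgm 281 and Mkrn1 266, and Bpgm and Mkrn1 had log2 ratios of 5.39 and 6.14. The late maturation list had 1021 UMIs against 64.2 expected, and 12 of its 12 measured genes were at least 2-fold higher. Lower genes were also frequent (19.1% of measured genes), and included 5 of 12 measured microglia markers and 5 of 18 oligodendrocyte markers. The median log2 ratio over all measured genes was -0.37 at day 7. The expectation was scaled to all non-globin UMIs of a barcode, red cell UMIs among them, which lowers the ratios of brain genes. How far this scaling set the lower genes was not tested.

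At day 14, 5548 genes were measured and 290 (5.23%) were at least 2-fold higher and 2.81% lower. Of 67 measured red cell list genes, 58 were. Alas2 had 664 UMIs, Gpx1 992 and Bpgm 561. Membrane genes had 983 UMIs against 50.7 expected, and Slc4a1, Epb42, Alas2 and Rhag were among the 5 genes with the highest lower bounds. Of the 26 Rhag UMIs, the 2 barcodes holding Gata1 and Klf1 held 10 and 16. That pair also held 22 and 40 of the 96 Slc4a1 UMIs. Microglia markers (8613 UMIs against 7905, 20 of 20 measured, 0 called) and oligodendrocyte markers (5128 against 5594, 19 of 19 measured, 0 called) lay near the expectation. This nearness is partly built in, since the same markers assigned the classes.

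Of the 10 genes with the lowest upper bounds, 8 were antibody genes, and the others were Ttr and Cd8b1. Igkc had 282 UMIs against 3477 expected (-3.62), Ighg2b 56 against 853 (-3.93), Jchain 12 against 180 (-3.91) and Ttr, transthyretin of the choroid plexus, 99 against 725 (-2.87). Cd8b1, a gene of CD8 T cells, had 0 UMIs against 13.5, and 4 of 15 measured T or NK cell markers were at least 2-fold lower. In the other day 14 barcodes the 10 richest held 94.4% of the Ighg1 UMIs, 75.2% of Ighm and 43.7% of Jchain, but 19.7% of Igkc and 19.2% of Ttr. How far a few very rich barcodes set each expectation was not tested. Of 7 measured mural cell markers 6 passed 2-fold in the sum, among them Vtn (173 against 67.5) and Pdgfrb (27 against 10.1). This came from day 14, where the list gave 321 UMIs against 112.5 expected. At day 7 it gave 59 against 62.0 with 0 of 2 measured genes higher, and in sham 1 against 12.7. Cspg4, also expressed by pericytes, was at 1.19.

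Nearly all globin-rich barcodes held enough brain or immune markers for a class. A class was given to 20 of 20 in sham, 8 of 8 at day 1, 1 of 1 at day 3, 37 of 38 at day 7 and 57 of 63 at day 14. At least 3 markers of each of 2 or more classes were found in 8 sham barcodes and 5 at day 1. This was so for 0 at day 3, 33 at day 7 and 44 at day 14. Among other barcodes the shares were 51.0%, 55.8%, 60.5%, 99.3% and 93.4% from sham to day 14. The class given is thus the one with most markers and need not be the only cell in the droplet. Barcodes under 200 genes with much globin also reached 3 markers of a class. This was so for 4 of 19 in sham, 4 of 13 at day 1, 6 of 6 at day 7 and 88 of 216 at day 14. A class from 3 markers alone therefore does not show a brain cell in the droplet. Of the globin-rich sham barcodes, 9 were classed by astrocyte, 8 by microglia, 2 by endothelial and 1 by oligodendrocyte markers. At day 7, 15 were classed by oligodendrocyte, 12 by microglia and 8 by astrocyte markers. At day 14, 30 were classed by microglia, 13 by oligodendrocyte, 6 by T or NK cell and 3 by endothelial markers. Endothelial classes made up 10.0% of the sham barcodes (1.23 to 31.7%) against 0.469% of other barcodes, and 4.76% at day 14 (0.993 to 13.3%) against 0.278%, from 2 and 3 barcodes. At day 7 they made up 2.63% (0.0666 to 13.8%) against 2.60%, from 1 barcode. There were 0 at day 1, against 0.528% of other barcodes, and 0 at day 3, against 0.749%.

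The classes were then counted at equal depth. Thinned to 200 non-globin UMIs, 20 of 20 sham barcodes kept a class, 7 of 8 at day 1, 18 of 38 in the day 7 library (47.4%, 31.0 to 64.2%) and 31 of 63 in that of day 14 (49.2%, 36.4 to 62.1%). The same thinning left a class to 95.3%, 83.6%, 88.3% and 73.1% of other barcodes of those libraries. At day 14 it was 12 of 15 barcodes with 10 to 25% globin, 11 of 16 with 25 to 50%, and 8 of 32 with 50% or more (25%, 11.5 to 43.4%). At equal depth the sham barcodes kept a class no less often than other sham barcodes in these counts, while those of day 7 and day 14 kept one less often than theirs.

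Marker levels were compared next, and they are partly built in for the same reason. In sham, barcodes of the microglia class with 10 to 50% globin held 592 microglia marker UMIs per 10000 non-globin UMIs (525 to 665), against 530 in other barcodes of that class. At day 14 the 17 such barcodes held 441 (432 to 451) against 386, while the 13 with 50% or more globin held 157 (132 to 187), 40.8% of the level in others. For oligodendrocyte markers at day 14, 5 barcodes below 50% globin held 935 per 10000 against 937, and 8 barcodes at or above it held 175 (133 to 225). At day 7 the 12 oligodendrocyte-class barcodes with most globin held 174 against 815. Day 7 microglia-class barcodes were low in both ranges, with 175 against 411 below 50% globin and 141 at or above it. T or NK cell markers at day 14 ran the other way, with 62.3 against 93.7 in 4 barcodes below 50% globin and 100.3 in 2 at or above it. Astrocyte markers at day 7 stood at 182 against 438 in 1 barcode below 50% globin and at 327 in 7 at or above it. In those 7, a single barcode held 5768 non-globin UMIs and 19 markers, and the others held 434 to 907 UMIs. The 2 day 14 astrocyte-class barcodes held 449 against 224, and 1 of them held 1075 non-globin UMIs against 307 in the other.

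**Figure D5:**
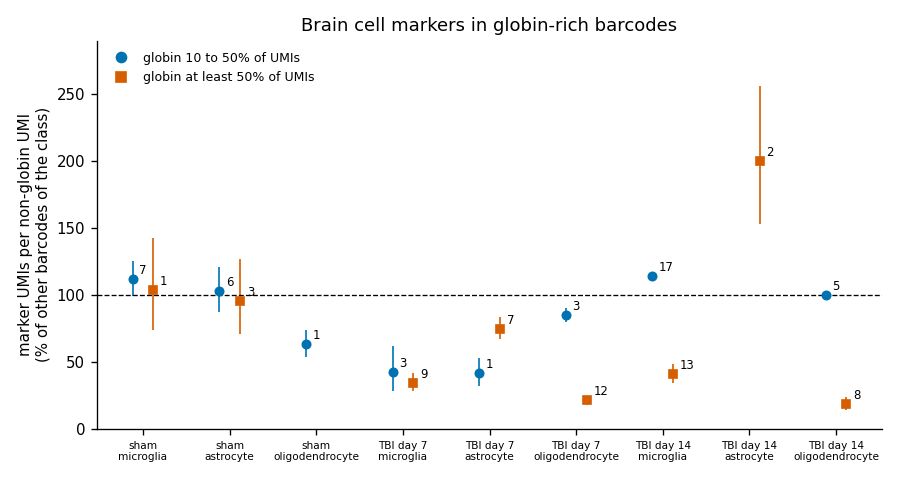
Class marker UMIs per non-globin UMI of globin-rich barcodes as a percent of other barcodes of that class and library, for 3 classes in the sham, day 7 and day 14 libraries, with 95% Poisson bars and the number of barcodes beside each point. Blue circles are barcodes with 10 to 50% globin and orange squares those with 50% or more. Day 14 microglia and oligodendrocyte circles lie at 114% and 99.8%, and their squares at 40.8% and 18.7%.

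Red cell genes were a larger part of the non-globin UMIs where the globin share was higher. Over all libraries the red cell lists held 7652 CPM in barcodes with 10 to 25% globin, 23095 at 25 to 50% and 94385 at 50% or more. Microglia markers ran the other way, at 33206, 14083 and 8297 CPM. These sums pool libraries and classes, and the classes differed between ranges. At day 14 the microglia class held 11 of 15, 6 of 16 and 13 of 32 barcodes in the same order. The part of class in this fall was not tested. Per 10000 globin UMIs at day 14, Alas2 stood at 29.2 (24.0 to 35.2), 31.0 (27.0 to 35.3) and 17.2 (15.5 to 19.2) in the same order, and at 18.3 (17.3 to 19.4) in the 216 barcodes under 200 genes. Bpgm stood at 30.3, 25.02 and 13.9, and at 13.1 in those 216. Relative to globin, both genes were thus lower in the day 14 barcodes with most globin. Alas2 did not have this order at day 7 or in sham: it stood at 22.8, 16.5 and 21.5 over the same ranges at day 7, the first from 1 UMI, and at 12.2, 7.14 and 19.7 in sham, from 2, 2 and 5 UMIs.

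The 216 day 14 barcodes under 200 genes gave another view of which genes go with globin. They held 6.16 non-globin UMIs per 100 globin UMIs. If the globin of the 63 barcodes came with the same genes, 5.46% of their non-globin UMIs would be of that kind, and 45.8% in the 32 barcodes with 50% or more globin. Those 32 were mixed: 28 had 80% globin or more, with a median of 404 non-globin UMIs. Of the rest, 3 had 50 to 60% globin (median 3228) and 1 had 60 to 70% (2442). The estimate was not made for them apart, so 45.8% need not describe either kind. Of 1749 genes with at least 30 UMIs in the 63 barcodes, 57 would get over 50% of their predicted UMIs with globin and 1601 under 10%. The observed count lay within 2-fold of the sum of UMIs that go with globin and the brain expectation for 1682. Among the 57 were 25 of 37 measured red cell list genes, such as Alas2 (99.9%), Slc25a37 (95.5%) and Ube2l6 (93.1%). Of 67 measured brain and immune markers, 65 were under 10%, and 1, Gda, listed as a monocyte marker, was at 90.1%.

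The other 32 genes of that kind were in no red cell list. They included Ube2b (77.5%), March2 (82.1%), Ccndbp1 (81.8%), Slc25a39 (77.4%), Tfdp2 (82.6%), Isca1 (86.5%), Oaz1 (54.6%) and Apol11b (99.9%). Slc25a39 and Isca1 serve mitochondrial glutathione import and iron-sulfur cluster assembly. Not all red cell genes went with the 216: Tfrc and Rhd had 0 UMIs there against 93 and 45 in the 63 barcodes, and Slc4a1 had 19 against 96. Most of those UMIs lay in the 2 barcodes holding Gata1 and Klf1. That pair held 28 and 47 of the Tfrc UMIs, 17 and 24 of Rhd and 22 and 40 of Slc4a1. Among the 5 genes most like Alas2 over 13 combinations of library and globin range were Bpgm (cosine 0.973), Oaz1 (0.969), Fam220a (0.967) and Mkrn1 (0.965). Those points share libraries and depth.

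The same estimate in the other libraries rests on fewer barcodes. It gave 3.23% of the non-globin UMIs in sham and 6.05% at day 1. At day 7 it gave 67.1% over all barcodes, but 109% in the 30 with 50% or more globin, which is more than they held, so no day 7 gene was divided in this way. At day 7 only 6 barcodes under 200 genes were available, and all 6 held 3 or more brain markers.

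Genes that phagocytes use for haem and iron lay near the expectation. Of 13 genes 8 were measured in the sum and 0 were called, with a median log2 ratio of 0.12. At day 7 alone 1 of 4 was higher and 1 lower, and at day 14 alone 1 of 8 was higher. Hmox1, haem oxygenase, had 25 UMIs against 33.7 expected (-0.43), Fth1 4075 against 4375 (-0.10) and Ftl1 2129 against 1603 (0.41). Cd163 and Spic had 0 UMIs. Slc48a1, a haem transporter, was at 0.98 (0.67 to 1.27). In the 31 microglia- or macrophage-class barcodes at day 14, Slc48a1 had 22 UMIs, 113 CPM (70.7 to 171) against 50.9 in other barcodes of those classes. The same 31 held 311 Alas2 UMIs and included the barcodes holding Gata1 and Klf1. Whether their Slc48a1 UMIs came from red cell RNA or from phagocytes was not tested.

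Ribosomal and mitochondrial RNA were examined last. Gm42418, which overlaps ribosomal RNA sequence, made up 18.0% of the non-globin UMIs of the day 7 barcodes (17.6 to 18.4%) against 3.43% in the other barcodes. In the remaining libraries it was 0.150 to 0.360% against 0.0685 to 0.185%, above the other barcodes in each of them. Mitochondrial genes made up 10.9% of non-globin UMIs at day 7 against 6.00% in others, and 1.06% against 1.15% at day 14. Platelet markers gave 132 UMIs against 98.4 expected over all libraries, and 1 of 12 was measured.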

How the data were processed

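The 5 libraries of mouse cortex cells used 10x Genomics chemistry, 3′ version v3. Per the file headers, the authors deposited raw UMI counts made with Cell Ranger 4.0.0, and STAR 2.5.37, Seurat 3.2.0, GRCm38 and mm10 are named in the submitters' processing notes. All 55450 gene IDs were found in GENCODE mouse release M21. The filters and globin threshold are given with the results. Classes came from 224 markers of 14 brain and immune classes, and a barcode took the class with most markers, at least 3. The members, markers and lists were chosen with earlier results of these data known. Named genes were list genes with at least 10 UMIs, the 20 genes with the highest lower bound and the 10 with the lowest upper bound of observed over expected UMIs, the 5 highest in each library with at least 20 members, and the 5 most like Alas2. The ratio of observed to expected counts was tested on simulated data for the summed comparison of 5857 genes. It called 50.0% of genes simulated at 2-fold, 100% at 4-fold and 0.0530% of unchanged genes. The simulated counts were Poisson draws around the same expectation, for genes expected at 10 UMIs or more. They held no spread between barcodes and no wrong classes, so these rates check the calculation only and are not error rates of the real calls. Scrublet in scanpy 1.11.5 called 3.56 to 8.89% doublets in 4 libraries. At day 7 its automatic threshold marked 0.00809%, so the highest 5% of scores were used, a choice made after seeing the data. Doublets were kept, and removed in an alternative. Shares have Clopper-Pearson and sums Poisson intervals at 95%, for counting error only, and a count of 0 is read with a limit of 3 counts. Promoters came from RefSeq. Computation used Python 3.11.15, numpy 2.4.6, scipy 1.17.1 and pandas 2.3.3. Other globin thresholds, filters, marker numbers, a least squares mixture of classes and leaving out each library were also tried. Some listed or named genes are not reported here, though the counts of lists include them.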

Additional observations from a re-analysis of the deposited data

Results flagged for a closer look

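Barcodes rich in globin but with under 200 genes lie outside the comparisons, and at day 14 they made up 1.77% of the library's 12225 barcodes (216 barcodes, interval 1.54 to 2.02%). In the sham library the share was 0.164% (19 of 11571, 0.0989 to 0.256%). The day 14 share was above that of the control library beyond counting error. Day 1 had 0.102% and day 7 had 0.0424%. The sham barcodes held 524 to 1153 UMIs with a median of 624, close to the minimum of 500 UMIs. At day 14 the median was 3163. Droplets under that minimum were not counted, and the sham library was shallower, with 11279455 UMIs against 129161094. The part of depth in the difference between sham and day 14 was not tested. The day 14 barcodes held 1177 Alas2 UMIs and 643161 globin UMIs. With 1 library per group this difference has no replicate check.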

How the results depend on the processing

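No paired analysis was possible because each group had 1 library. Day 14 set most summed counts, and low counts limited sham, day 1 and day 3. Against the brain cell expectation, with each library left out in turn, 85 to 274 genes were at least 2-fold higher, 135 to 232 lower, and 28 to 58 red cell list genes higher; the lowest values were without day 14. A minimum of 30 UMIs gave 120 higher, 29 lower and 35 of 37 red cell list genes, and 161, 42 and 35 against all other barcodes; no minimum beyond 1 UMI gave 1941 higher and 1123 lower. The least squares mixture gave 602 lower. Without the 2 barcodes holding Gata1 or Klf1, an alternative added after seeing the data, 35 red cell list genes were higher, and 37 against all other barcodes. A globin share of at least 50% gave 0.0347% of barcodes in sham, 0.0157% at day 1, 0% at day 3 and 0.268% at day 14. No gene minimum gave 0.338%, 0.165% and 2.29% in sham, day 1 and day 14, at least 1000 UMIs gave 0.288% in sham, and removing doublets gave 0% at day 3, which leaves no class share there. For barcodes with a class, 5 markers gave 81.6% at day 7 and 66.7% at day 14, 2 markers gave 100% at day 14, and thinning gave 47.4% and 49.2%. Log2 ratios changed sign without day 14. With each library left out in turn, Abcb10 ranged from -0.94 to 1.53, Alad from -0.53 to 2.35, Cpox from -1.84 to 1.43, Tfrc from -0.12 to 2.36 and Ighm from -2.55 to 1.03. Signs also changed without the 2 barcodes for Abcb10 (-0.75), Alad (-0.40), Cpox (-0.43), Ppox (-0.077), Tal1 (-0.67) and Mki67 (-3.08). The cause was not tested. Of the 1326 values of single genes under an alternative, 1151 stayed within the main interval.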
